A study of Homo sapiens with 12 samples.

Results

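The S100 proteins are small calcium sensors that pair up, change shape when calcium binds, and then dock onto target proteins such as annexins, myosin and kinases. Some members act inside the cell on membranes and the cytoskeleton. Others, above all the pair S100A8 and S100A9, are also released and act as alarm signals on receptors of neighbouring cells. In airway epithelium several members mark basal and squamous states, and most of the genes sit close together on chromosome 1 beside the genes of the cornified envelope. The 10 genes described here were chosen by name: S100A2, S100A4, S100A6, S100A8, S100A9, S100A10, S100A11, S100A13, S100A14 and S100A16. All 10 were in the deposited table of 28395 gene identifiers, and all 10 passed the filter on low counts, which left 13469 genes.

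RNA was sequenced in 12 libraries of BEAS-2B, an established line of human bronchial epithelial cells that carries viral transforming genes, in 4 groups of 3 libraries. Every group was kept without serum and steroid for 24 h, including the control, which received neither agent. TGF-β1, a growth factor that remodels epithelium, was given at 40 pM for 24 h, and dexamethasone, a synthetic glucocorticoid, at 30 nM for 4 h. The fourth group received TGF-β1 and then dexamethasone. One label field names A549 cells and the other fields name BEAS-2B. The vehicle of the treatments is not given in the sources used here.

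Total counts per library ran from 5861591 to 19727235, with replicate 3 of each group the deepest. The checks of both agents moved with the labels: SMAD7, a feedback target of TGF-β1, had a log2 fold change of 3.07 with TGF-β1, and FKBP5, a glucocorticoid target, one of 3.90 with dexamethasone. All 7 airway epithelial markers passed the filter and summed to 1190 to 2710 CPM, where CPM is the count per gene scaled to the normalised total of its library. Their sum was 1710 to 1890 CPM in control, 1190 to 1750 with TGF-β1, 2110 to 2710 with dexamethasone and 1750 to 2600 with both. Basal keratin KRT5 lay at 387 to 1370 CPM. Means in control and with TGF-β1 were 502.5 and 602.0 CPM for KRT5, 358.7 and 148.5 for KRT18, and 186.3 and 60.35 for KRT19. Log2 fold changes come from edgeR's quasi-likelihood test with 1 mean per group, with Benjamini-Hochberg adjustment over all 13469 genes, and a gene was called at an adjusted p under 0.05. Libraries that carry the same replicate number deviated together, so a fit with that number as a block was also run. Its values are given where it changed the call of a member, with an exception. For both agents against control and for TGF-β1 against dexamethasone, only the counts called with the block are given. Of the 7 epithelial markers 0 were called higher and 3 lower in TGF-β1 against control, beside 16.2% and 16.6% of all genes tested. With the block 2 were higher and 3 lower, beside 24.6% and 25.5%. In both agents against dexamethasone 0 were higher and 3 lower, beside 15.9% and 16.4%. In RNA from whole cultures, fewer cells with a transcript and less transcript per cell cannot be told apart.

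Levels within the family spanned more than 2 orders of magnitude. The levels that follow are control means in CPM per kilobase of exon, with the range over 3 libraries. S100A6, the annexin-binding member known as calcyclin, came first at 587 (520 to 676). S100A10, the partner of annexin A2, was at 318 (304 to 333), and S100A11, which binds annexin A1, at 251 (231 to 261). Per length, these 3 cytoskeletal and membrane-linked members did not overlap with each other or with the rest. In plain CPM the control libraries of S100A6 (505 to 656) and S100A10 (470 to 513) overlapped, so this separation depends on the lengths. S100A2, a member typical of basal epithelial cells, had 134 (120 to 158) and overlapped with S100A16 at 117 (91.0 to 150). S100A14 followed at 24.9 (23.1 to 28.1), then S100A13, a carrier in the unconventional export of growth factors, at 18.01 (17.2 to 18.5). The bottom of the order was S100A9 at 16.8 (7.53 to 32.8), S100A4, a member tied to cell motility, at 6.81 (3.91 to 10.9), and S100A8 at 2.93 (0.624 to 7.25). From S100A13 down, each gene overlapped with its neighbour in this order. The 10 genes together took 0.137% to 0.216% of all counts in a library, and S100A6 and S100A10 made up 49.2% to 63.8% of that share.

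**Figure D1:**
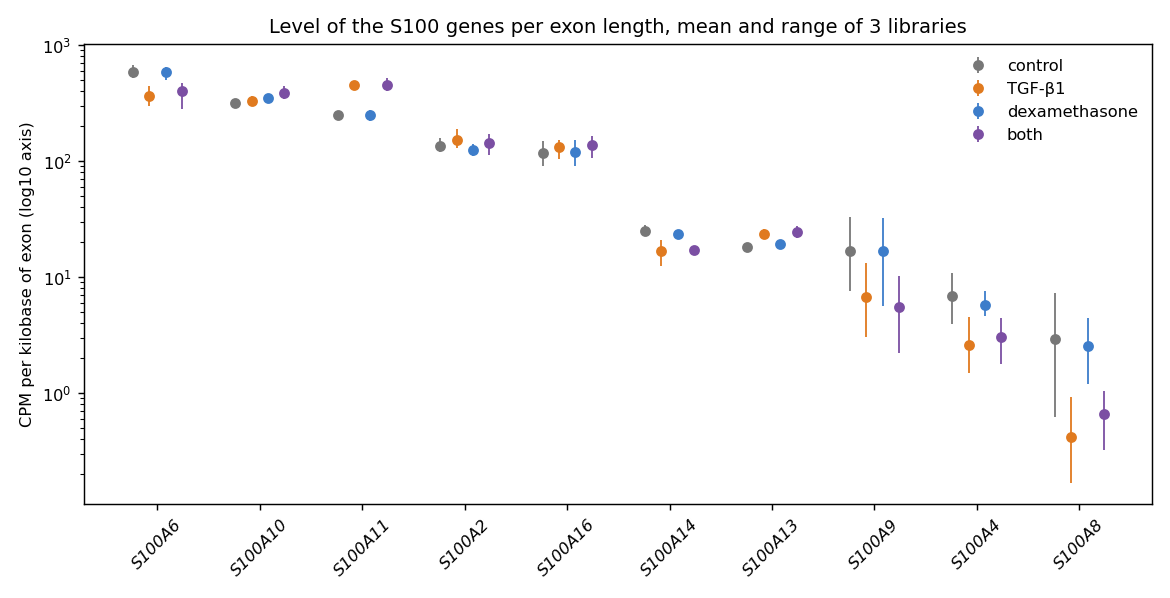
Level of each S100 gene per exon length, on a log10 axis, in the 4 groups; points are means of 3 libraries and lines their range. S100A6 leads in control at 587 CPM per kilobase and S100A8 is lowest at 2.93, and the ranges of S100A9, S100A4 and S100A8 are wide.

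Sequence upstream of the members came from the RefSeq table, which held windows for all 10. The 30 bases shown here surround the letters TATAAA, in capitals, and are aligned on them, because S100A4, S100A8 and S100A9 were the 3 members with the largest fitted decreases under TGF-β1. They are written 5′ to 3′ along the gene from RefSeq on GRCh38.p14: S100A4 at chr1:153545820-153545849 on the minus strand, S100A8 at chr1:153391085-153391114 on the minus strand, S100A9 at chr1:153357813-153357842 on the plus strand, and S100A13 at chr1:153627517-153627546 on the minus strand.
S100A4: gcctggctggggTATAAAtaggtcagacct
S100A8: aagcctaaccgcTATAAAaaggagctgcct
S100A9: tcaggagctgccTATAAAtgccgagcctgc
S100A13: ttccccgctgctTATAAAcctcagccctga
The first T lies 31 bases before the annotated start of S100A4 and 29 bases before a start of S100A8, S100A9 and S100A13. In S100A13 the match lies before 1 of its 3 annotated starts. TATAAA, searched on the gene's strand only and added after the sequences were seen, was present within 250 bases upstream of a start for these 4 of the 10 members. A gene with several starts has several windows: the 10 members have 16, of which 5 held TATAAA, against 6.8% of 35116 RefSeq windows of that length. The windows before starts 153391073 and 153390976 of S100A8 overlap and hold the same TATAAA, so this site is counted in each. As the letters were picked from these sequences, the shares cannot show whether the members are enriched for them.

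The 2 longer stretches that follow belong to the member with the most even ratios between replicate numbers in TGF-β1 against control and to the member with the largest increase. The first is S100A9, chr1:153357604-153357853, plus strand, all 250 bases before its start. The second is S100A11, chr1:152037036-152037254, minus strand, cut short where an annotated untranslated region begins. Capitals mark TATAAA in S100A9 and TGTCTG in S100A11, which is CAGACA on the other strand, a short sequence that SMAD proteins, the transcription factors of the TGF-β pathway, can bind.
S100A9: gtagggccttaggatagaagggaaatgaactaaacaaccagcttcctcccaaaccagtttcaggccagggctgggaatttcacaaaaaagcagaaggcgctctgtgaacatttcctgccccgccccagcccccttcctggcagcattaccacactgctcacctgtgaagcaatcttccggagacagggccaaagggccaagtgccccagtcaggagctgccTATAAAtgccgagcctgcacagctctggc
S100A11: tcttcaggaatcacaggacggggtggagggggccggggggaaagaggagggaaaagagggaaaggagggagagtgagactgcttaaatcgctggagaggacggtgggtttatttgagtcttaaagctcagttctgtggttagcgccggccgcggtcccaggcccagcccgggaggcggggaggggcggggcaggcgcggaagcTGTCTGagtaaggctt
CAGACA, on either strand, was found for 6 of the 10 members (S100A2, S100A8, S100A10, S100A11, S100A13 and S100A16), in 7 of their 16 windows, against 13.6% of all windows. The AP-1 letters TGANTCA were found only for S100A2, in 1 of the 16 windows, 52 bases before a start, against 6.57% of all windows. None of the member windows held the glucocorticoid receptor core letters AGAACA (12.4% of windows) or the full palindromic glucocorticoid response element (0.327%), or the SMAD palindrome GTCTAGAC (0.182%). A match or its absence in these windows describes letters, not binding.

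The first question was what TGF-β1 alone did to the family. With TGF-β1, 2 of the 10 members rose and 3 fell against control, beside 16.2% of all genes tested higher and 16.6% lower. S100A11 and S100A13 were higher, and S100A4, S100A6 and S100A14 lower. The libraries of the compared groups did not overlap for 4 members, as for 44.8% of all genes tested. The median log2 fold change over the members was -0.27, and -0.01 over all genes tested. The member median falls in the gap between S100A14 (-0.59) and S100A10 (0.05). With members on both sides of this gap, it does not describe a shift of the family. With the replicate number as a block 4 members were higher and 5 lower, against 24.6% and 25.5% of all genes in that fit.

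**Figure D2:**
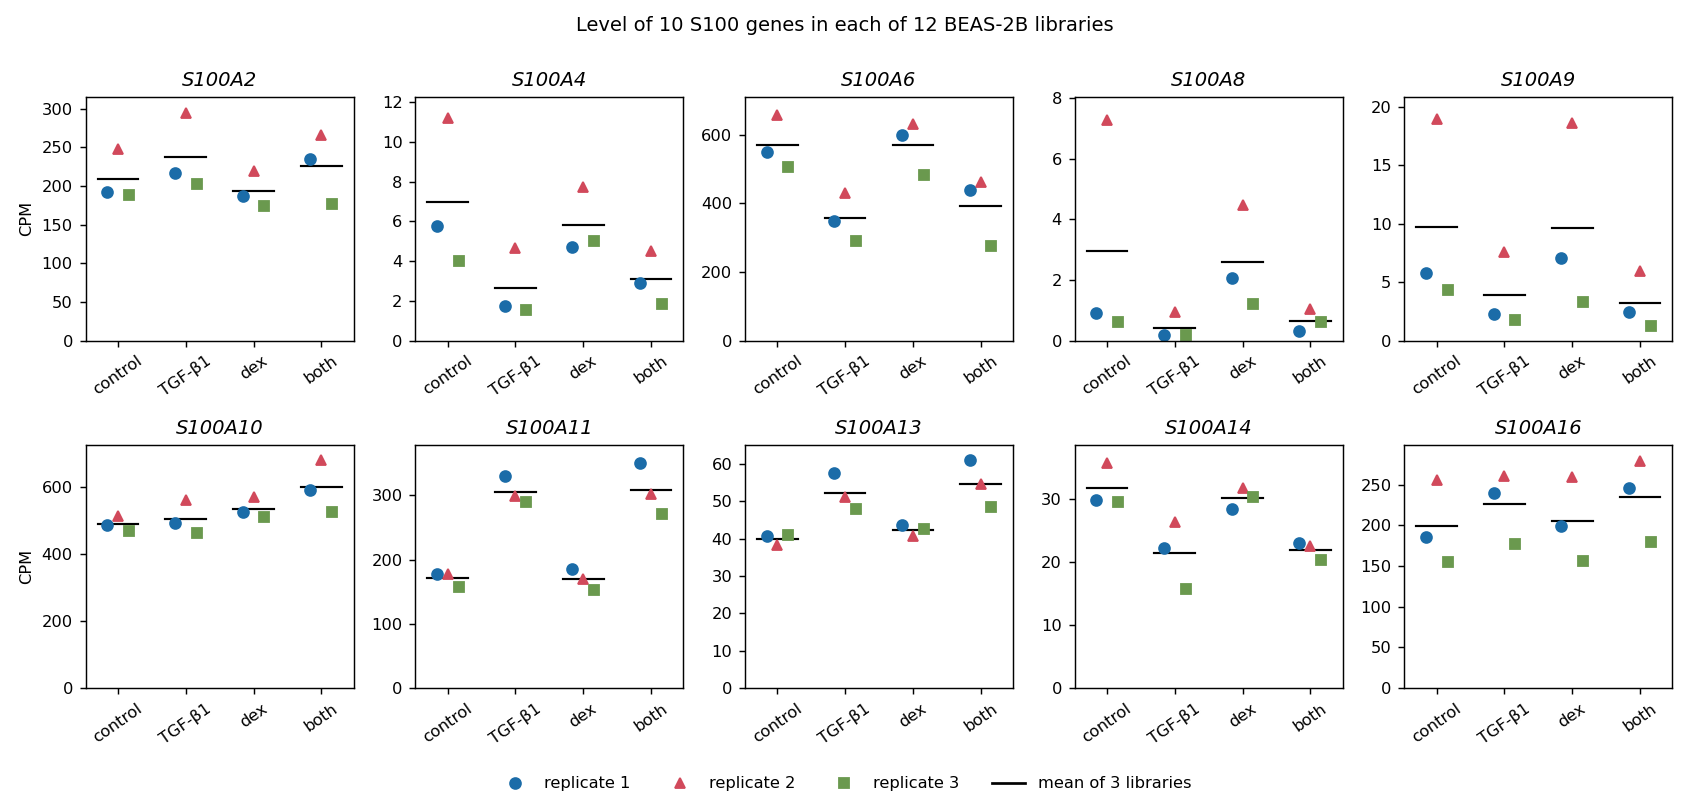
CPM of each of the 10 genes in each of the 12 libraries, by group (dex is dexamethasone); symbols mark the replicate number and bars the mean of 3 libraries, and each axis starts at 0. S100A11 separates the groups with TGF-β1 (271 to 351 CPM) from those without (152 to 186 CPM), and replicate 2 is the highest library for 7 genes in every group.

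S100A11 lies at chr1:152032506-152037004 and encodes calgizzarin, which binds annexin A1 and acts in membrane repair and growth control. It was measured at 177, 177 and 157 CPM in control replicates 1, 2 and 3, and at 329, 299 and 290 CPM with TGF-β1. The groups did not overlap, and every TGF-β1 library was well above every control. The log2 fold change was 0.84 (SE 0.10, adjusted p = 2.9e-05, edgeR), and it stayed past the test when any 1 of the 6 libraries was left out. S100A11 was 1.86, 1.68 and 1.84 times the control within replicates 1, 2 and 3.

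S100A13 lies at chr1:153618799-153634361 and is needed for the release of FGF1 and IL1A, which lack a signal peptide. Control libraries held 40.6, 38.2 and 40.9 CPM, and TGF-β1 libraries 57.6, 51.0 and 47.9 CPM. All 3 treated libraries lay above the controls (log2 fold change 0.38, SE 0.10, adjusted p = 0.01, edgeR). The call was lost without TGF-β1 replicate 1 (adjusted p = 0.0525), and with scaling by library size alone (0.17, adjusted p = 0.176), which moved the median of all genes to -0.22. Its span overlaps CHTOP (418 to 1544 counts per library), whose log2 fold change was 0.05 (adjusted p = 0.609), and S100A1 (2 to 19 counts). The library kit named in the labels does not mark strand, so reads from such overlaps cannot be told apart.

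S100A6 lies at chr1:153534599-153535991. It stood at 550, 656 and 505 CPM in control and at 349, 430 and 289 CPM with TGF-β1. No library overlapped between the groups, and the member with the highest level per length in control had the largest fall in CPM. The log2 fold change was -0.68 (SE 0.20, adjusted p = 0.0214, edgeR). Leaving out control replicate 2, TGF-β1 replicate 1 or TGF-β1 replicate 3 lost the call (adjusted p 0.0823, 0.0644 and 0.0817), as did dropping the filter on low counts (adjusted p = 0.0719), whereas the fit with the block gave -0.69 (adjusted p = 3.4e-05).

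S100A14, at chr1:153614255-153616325, is a member of epithelial cells linked to adhesion and motility. Values were 29.9, 35.9 and 29.5 CPM in control and 22.3, 26.4 and 15.8 CPM with TGF-β1, again without overlap. Its log2 fold change was -0.59 (SE 0.16, adjusted p = 0.0109, edgeR), and the call was lost without TGF-β1 replicate 3 (-0.37, adjusted p = 0.0516).

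S100A4, at chr1:153543621-153545806, binds non-muscle myosin and is widely used as a marker of fibroblasts and of cells in epithelial-mesenchymal transition. It was at 5.76, 11.2 and 4.01 CPM in control and fell to 1.75, 4.64 and 1.51 CPM with TGF-β1. The groups overlapped through replicate 2, which was high in both, while within each number the treated library was lower. The log2 fold change was -1.44 (SE 0.50, adjusted p = 0.0433, edgeR) and -1.40 with the block (adjusted p = 3.5e-05). Without control replicate 1 or 2, or TGF-β1 replicate 1 or 3, the adjusted p was 0.0693 to 0.197; it was 0.107 with no filter on low counts and 0.0906 in a fit of these groups alone. Without TGF-β1 replicate 2 the log2 fold change was -2.05. The 5 fibroblast markers summed to 250 to 379 CPM in control and 504 to 724 CPM with TGF-β1. PDGFRB had 34.1 to 42.15 CPM in control and 178.7 to 199.6 CPM with TGF-β1, and THY1 215.6 to 342.2 and 324.2 to 533.1 CPM. Of these 2, the only fibroblast markers tested, 1 was called higher and 0 lower, and 2 were higher with the block. All genes tested were higher in 16.2% of cases, and in 24.6% with the block. LUM and DCN reached at most 0.309 CPM. The part of these markers in the result on S100A4 was not tested. The span of S100A4 overlaps S100A5 and LOC101928034, neither of which had more than 17 counts in a library.

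S100A8, at chr1:153390032-153422583, and S100A9, at chr1:153357854-153361023, form calprotectin, a zinc- and calcium-binding complex abundant in neutrophils and in stressed squamous epithelium. S100A9 had 5.76, 18.9 and 4.35 CPM in control and 2.28, 7.58 and 1.74 CPM with TGF-β1. Replicate 2 was more than 3 times the others in both groups, so the groups overlapped. Within replicates 1, 2 and 3 the treated library held 0.395, 0.4 and 0.4 times the control, the tightest agreement of the 10 genes. The test without the block did not pass (-1.37, SE 0.91, adjusted p = 0.287, edgeR), and the test with it did (-1.32, SE 0.19, adjusted p = 5.51e-06).

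S100A8 rested on few reads: 6, 47 and 13 counts in control (0.91, 7.29 and 0.628 CPM) and 1, 6 and 3 counts with TGF-β1 (0.175, 0.928 and 0.168 CPM). The treated library was lower within every number, and the groups overlapped. Its log2 fold change was -2.81 (95% interval -5.41 to -0.22, adjusted p = 0.0926, edgeR) without the block and -2.54 (interval -3.65 to -1.44, adjusted p = 0.000461) with it. DESeq2 without the block also passed it (adjusted p = 0.00855). Without the block, limma voom and edgeR scaled by library size alone did not call it.

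Leukocytes are the best known source of S100A8 and S100A9. The 10 leukocyte markers summed to 19.9 to 22.0 CPM in control and 21.3 to 32.0 CPM with TGF-β1, most of it from CD68. FCGR3B had no count in any library, and PTPRC, LYZ, ITGAM, CD3E and MPO reached at most 0.35 CPM. Of the 3 that were tested, 1 was called higher and 1 lower. CD14, a monocyte receptor, fell from 4.20 to 6.83 CPM in control to 1.39 to 1.68 CPM with TGF-β1 (-1.71, adjusted p = 0.00103, edgeR). CSF1R, the receptor of a macrophage growth factor, rose from 0.776 to 1.45 CPM to 8.35 to 10.9 CPM (3.04, adjusted p = 4.38e-06), and CD68 did not pass (0.19, adjusted p = 0.547). Their part in the values of S100A8 and S100A9 was not tested.

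The other 3 members did not pass the test without the block. S100A2, at chr1:153561108-153565844, a basal cell member, had 193, 248 and 188 CPM in control and 217, 294 and 203 CPM with TGF-β1. S100A16, at chr1:153606883-153613137, a broadly expressed member, had 185, 256 and 155 CPM in control and 240, 260 and 177 CPM with TGF-β1. In both, the treated library was higher within every number but the groups overlapped. The log2 fold changes were 0.18 for S100A2 (adjusted p = 0.46; 0.17 with the block, adjusted p = 0.0256) and 0.18 for S100A16 (adjusted p = 0.611; 0.19 with the block, adjusted p = 0.00835). Under library size alone both estimates were -0.02, so their direction depends on the scaling.

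S100A10, at chr1:151982915-151993859, holds annexin A2 at the membrane and binds plasminogen activators. It was at 487, 513 and 470 CPM in control and at 494, 562 and 464 CPM with TGF-β1, nearly the same range. The log2 fold change was 0.05 (95% interval -0.17 to 0.26, adjusted p = 0.756) and did not pass with the block either (adjusted p = 0.5).

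**Figure D3:**
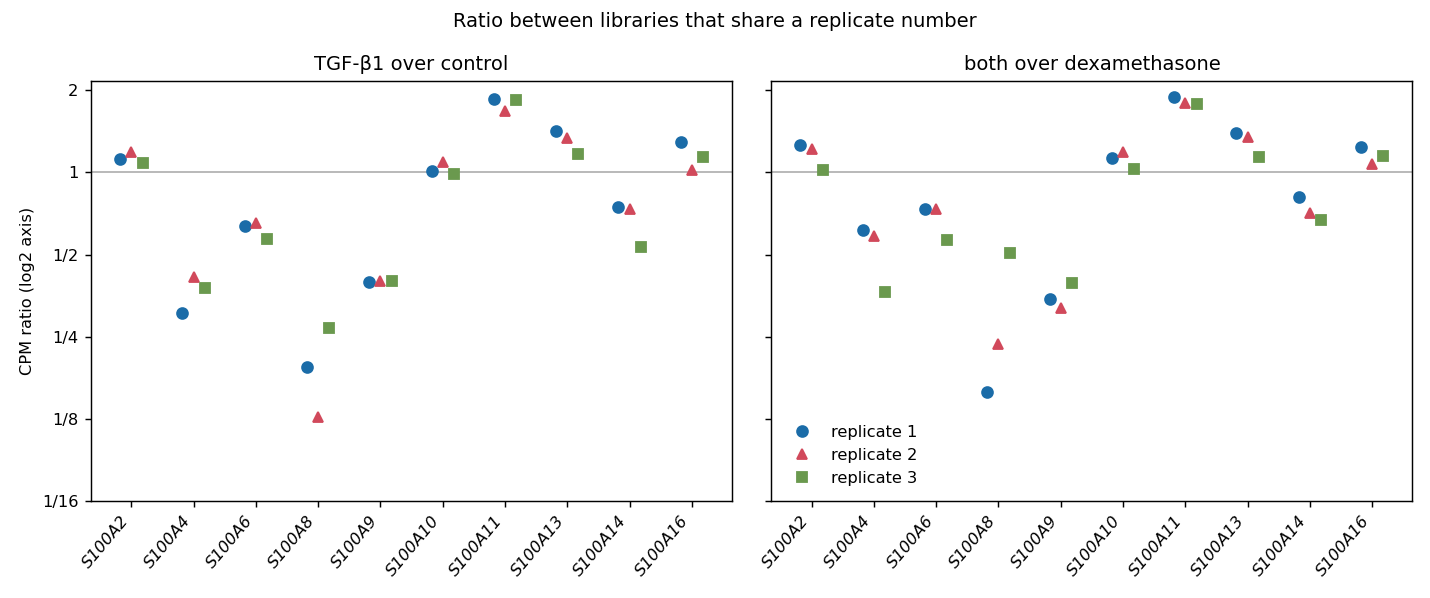
CPM ratio between libraries that share a replicate number, on a log2 axis, for TGF-β1 over control and for both agents over dexamethasone. In both panels S100A4, S100A6, S100A8, S100A9 and S100A14 lie below 1 in all 3 numbers and S100A2, S100A11, S100A13 and S100A16 above 1; S100A8 rests on 1 to 47 counts per library.

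The second question was whether TGF-β1 did the same when dexamethasone was present, which compares both agents with dexamethasone alone. The libraries compared differ from those above but share the fit and the replicate numbers with them. The comparison is therefore not an independent repeat. S100A11 and S100A13 rose and S100A14 fell, beside 15.9% of all genes tested higher and 16.4% lower. The groups of 6 members did not overlap, as for 42.9% of all genes tested. With the block all 10 members passed, 5 higher and 5 lower, where 49.9% of all genes passed. The median log2 fold change was -0.15 for the members and -0.02 for all genes tested. Here too the member median lies in the gap between S100A14 (-0.47) and S100A10 (0.16) and describes no shift of the family.

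S100A11 stood at 186, 169 and 152 CPM with dexamethasone and at 351, 302 and 271 CPM with both, again without overlap. The log2 fold change was 0.87 (SE 0.10, adjusted p = 2.38e-05, edgeR), beside the 0.84 seen without dexamethasone. S100A13 had 43.8, 40.6 and 42.7 CPM with dexamethasone and 60.9, 54.6 and 48.5 CPM with both. Its log2 fold change was 0.36 (SE 0.10, adjusted p = 0.0133, edgeR), and the call was lost without replicate 1 of the double treatment (0.28, adjusted p = 0.0686) and under library size alone (0.16, adjusted p = 0.206).

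S100A14 had 28.4, 31.8 and 30.4 CPM with dexamethasone and 23.0, 22.6 and 20.3 CPM with both. The log2 fold change was -0.47 (SE 0.16, adjusted p = 0.036, edgeR), and the call was lost whichever of the 6 libraries was left out (adjusted p 0.0582 to 0.129). The libraries themselves did not overlap, and with the block the value was -0.48 (adjusted p = 0.00133).

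S100A6 was at 598, 630 and 483 CPM with dexamethasone and at 438, 462 and 274 CPM with both. Its groups did not overlap, and the log2 fold change of -0.54 narrowly missed the threshold (SE 0.20, adjusted p = 0.057, edgeR) and passed with the block (-0.57, adjusted p = 0.000176). S100A4 was at 4.73, 7.73 and 5.03 CPM against 2.92, 4.52 and 1.82 CPM. Here too no library overlapped, with -1.01 (adjusted p = 0.145) without the block and -1.06 (adjusted p = 0.00062) with it.

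The calprotectin pair was lower within every number here too. S100A9 had 7.10, 18.6 and 3.26 CPM with dexamethasone and 2.43, 5.92 and 1.28 CPM with both, which is 0.343, 0.318 and 0.392 times within replicates 1, 2 and 3. S100A8 had 14, 30 and 25 counts with dexamethasone and 2, 6 and 10 counts with both. Neither passed without the block (adjusted p = 0.21 and 0.215), and both passed with it (S100A9 -1.53, adjusted p = 1.81e-06; S100A8 -1.69, adjusted p = 0.00478). The leukocyte markers summed to 17.4 to 24.1 CPM with dexamethasone and 20.5 to 29.1 CPM with both. Among them CD14 was lower (2.44 to 4.76 CPM, and 1.095 to 2.09 CPM with both; -1.18, adjusted p = 0.0181, edgeR) and CSF1R higher (1.79 to 3.45 and 5.395 to 10.4 CPM; 1.52, adjusted p = 0.000722), and the part of these genes was not tested here either. The call of CD14 was lost without dexamethasone replicate 2 or replicate 3 of the double treatment (adjusted p 0.0744 and 0.122).

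For S100A2 (187, 219 and 174 CPM with dexamethasone; 235, 266 and 177 CPM with both) the log2 fold change was 0.22 (adjusted p = 0.37; 0.21 and 0.00983 with the block). S100A16 (199, 259 and 156 CPM; 246, 279 and 180 CPM) gave 0.20 (adjusted p = 0.586; 0.21 and 0.00542 with the block). Both were higher with TGF-β1 present in each number. S100A10 had 525, 572 and 512 CPM with dexamethasone and 593, 682 and 527 CPM with both, a log2 fold change of 0.16 (adjusted p = 0.24; adjusted p = 0.0122 with the block).

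**Figure D4:**
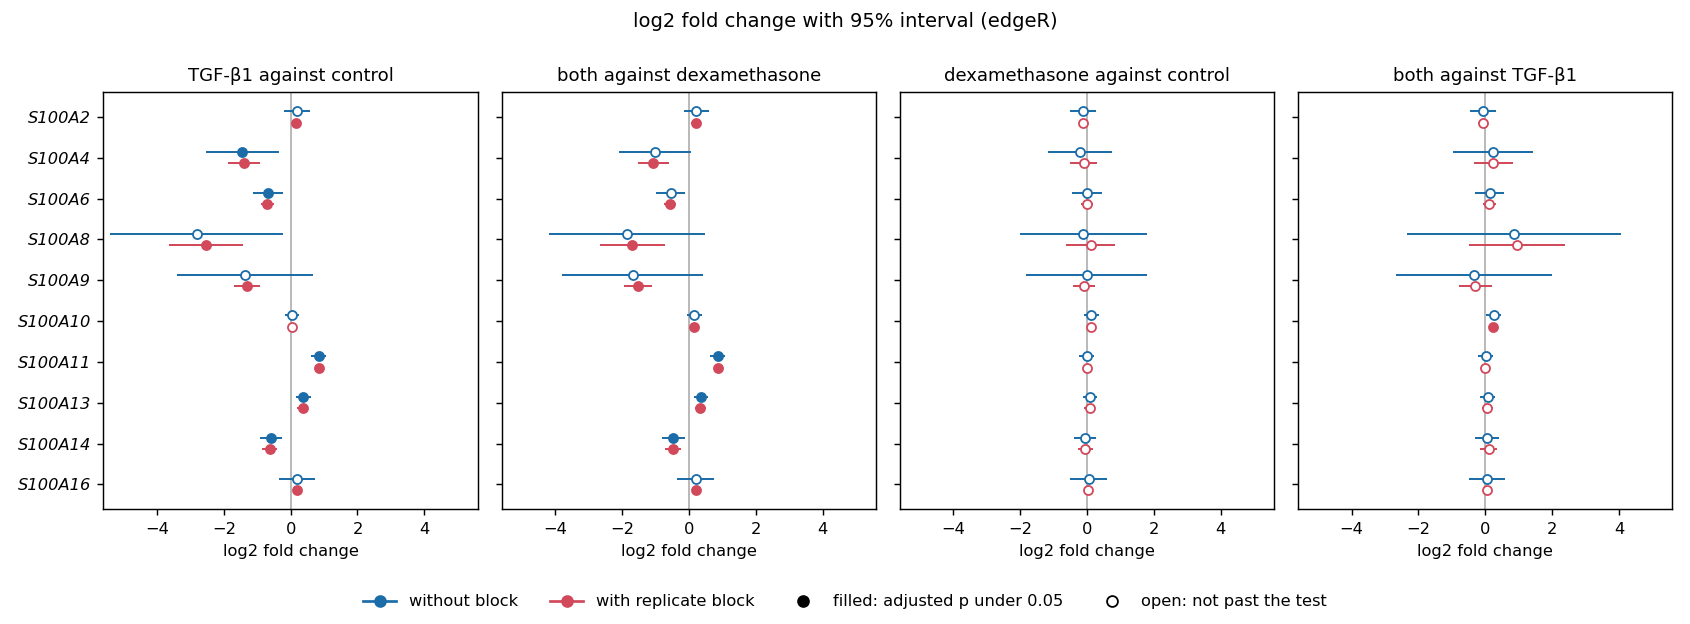
Log2 fold change of each gene with its 95% interval in 4 comparisons, from edgeR without and with the replicate number as a block; filled points have an adjusted p under 0.05. The 2 comparisons of TGF-β1 hold all calls except that of S100A10 between both agents and TGF-β1 with the block, and the intervals of S100A4, S100A8 and S100A9 shrink most with the block.

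The third question was what dexamethasone did. Against control, 0 of the 10 members were called, beside 10.4% of all genes tested in either direction. In edgeR 0 members had an unadjusted p under 0.05, DESeq2 and limma voom also called 0, and the block called 0, against 22.2% of all genes in that fit. With the block 1 member had an unadjusted p under 0.05, S100A10, at 0.13 (adjusted p = 0.0706, edgeR) and 1.08, 1.11 and 1.09 times the control within replicates 1, 2 and 3. Log2 fold changes ran from -0.21 for S100A4 to 0.13 for S100A10. The 95% interval was -0.24 to 0.21 for S100A11, -0.09 to 0.35 for S100A10, -0.13 to 0.30 for S100A13 and -0.39 to 0.27 for S100A14. It was wider for S100A2 (-0.50 to 0.27), S100A6 (-0.44 to 0.43) and S100A16 (-0.50 to 0.59). For S100A4 (-1.18 to 0.76), S100A9 (-1.84 to 1.81) and S100A8 (-2.02 to 1.79) the intervals without the block leave room for changes of more than 1.5 times in either direction. With the block they were -0.501 to 0.305 for S100A4, -0.414 to 0.248 for S100A9 and -0.629 to 0.838 for S100A8. Only that of S100A8 then leaves such room. No member had groups without overlap, against 25.7% of all genes tested.

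When dexamethasone followed TGF-β1, 0 members were called against TGF-β1 alone, beside 8.11% of all genes tested, and 1 had an unadjusted p under 0.05; DESeq2 and limma voom also called 0. That gene was S100A10, at 494, 562 and 464 CPM with TGF-β1 and 593, 682 and 527 CPM with both. It was 1.2, 1.21 and 1.14 times higher within replicates 1, 2 and 3, and its log2 fold change was 0.25 without the block (SE 0.10, adjusted p = 0.204, edgeR) and 0.24 with it (SE 0.05, adjusted p = 0.00111). In that fit 9.47% of all genes were called higher. S100A11, in contrast, had a log2 fold change of 0.01 (95% interval -0.21 to 0.23).

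The interaction asks whether the effect of dexamethasone differed with and without TGF-β1. It was called for 0 of the 10 members, with 0 at an unadjusted p under 0.05, beside 0.884% of all genes tested, and for 0 by DESeq2, by limma voom and with the block (4.78% of all genes in that fit). The intervals were -0.29 to 0.34 for S100A11, -0.32 to 0.29 for S100A13 and -0.19 to 0.42 for S100A10. For S100A9 the interval was -3.27 to 2.64 without the block and -0.80 to 0.38 with it.

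Both agents together against control, and TGF-β1 against dexamethasone, reuse groups that were already compared above and add no new libraries. With both agents against control, S100A10, S100A11 and S100A13 rose and S100A14 fell, beside 36.6% of all genes tested in either direction. With the block 4 were higher, S100A16 being added, and 5 lower, where 53.1% of all genes passed. S100A10 was the addition, with 593 to 682 CPM in 2 of the double-treated libraries and 527 CPM in the third, all above the highest control of 513 CPM. Its log2 fold change was 0.29 (SE 0.10, adjusted p = 0.0344, edgeR). The call was lost without control replicate 1 or 3 or without replicate 1 or 2 of the double treatment (adjusted p 0.0672 to 0.153), under library size alone (0.04, adjusted p = 0.804) and in a fit of these groups alone (adjusted p = 0.0574). The fall of S100A14 (-0.53, adjusted p = 0.017, edgeR) was not called without control replicate 2 or replicate 3 of the double treatment (adjusted p 0.0689 and 0.0705), and the rise of S100A13 (0.44, adjusted p = 0.00318) was not called under library size alone (adjusted p = 0.128). TGF-β1 against dexamethasone gave calls for S100A11 (0.86) and S100A13 (0.29) higher and S100A6 (-0.68) and S100A14 (-0.53) lower, beside 37.8% of all genes tested. With the block 4 were higher and 5 lower, where 54.6% of all genes passed. Without the block, leaving out 1 library lost S100A6 (TGF-β1 replicate 1 or 3, dexamethasone replicate 1 or 2, adjusted p 0.0563 to 0.0747), S100A13 (TGF-β1 replicate 1 or 2, dexamethasone replicate 2 or 3, adjusted p 0.0536 to 0.138) and S100A14 (TGF-β1 replicate 3 or dexamethasone replicate 2, adjusted p 0.0939 and 0.0554).

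Replicate 2 set much of the spread between libraries. It was the highest of the 3 libraries in all 4 groups for 7 of the 10 members (70.0%) and for 1169 of the 13469 genes tested (8.68%). For S100A9 it was 3.19 to 3.77 times the mean of replicates 1 and 3, for S100A4 1.59 to 2.84 times, and for S100A16 1.25 to 1.5 times. S100A11 (0.965 to 1.06 times) and S100A13 (0.936 to 0.999 times) were not raised in it. The keratinocyte genes differed in this. KRT5 was at 1.51 to 2.03 times, KRT4 at 1.56 to 34.8 times and KRT13 at 1.34 to 12.4 times, KRT13 below 1 CPM throughout. KRT4 did not pass the filter and had at most 4 counts in any library with TGF-β1 or both. Its ratio of 34.8 comes from 3, 63 and 2 counts with dexamethasone. The cornified envelope gene SPRR1B was at 11.2 to 30.1 times on a level of at most 2.97 CPM, whereas KRT10 was at 0.869 to 1.28 times. TGM1 was lowest in replicate 2 among the TGF-β1 libraries (7.11 CPM). It was highest in replicate 2 in control (11.02 against 10.31 and 11.01 CPM), with dexamethasone (12.2 CPM) and with both (6.787 CPM). IVL was lowest in replicate 2 in every group (0.928 CPM with TGF-β1). A further list held 5 genes taken as A549 markers, whose level in A549 cells was not checked here. Of these, ALDH3A1, an aldehyde dehydrogenase, was at 3.01 to 3.52 times, and ALDH1A1, SFTPC and NAPSA stayed below 1 CPM. These 5 summed to 11.8 to 38.2 CPM in control, 0.897 to 5.57 CPM with TGF-β1, 14.3 to 34.4 CPM with dexamethasone and 1.16 to 5.57 CPM with both. The 2 that were tested were both called lower in TGF-β1 against control (ALDH3A1 -3.26, adjusted p = 0.0221; AKR1B10, an aldo-keto reductase, -3.04, adjusted p = 0.0024, edgeR) and in both against dexamethasone (-2.87, adjusted p = 0.0447; -4.14, adjusted p = 9.69e-06). The calls of ALDH3A1 were lost without control replicate 2 or TGF-β1 replicate 1 or 3 (adjusted p 0.0633 to 0.104), and without dexamethasone replicate 2 or 3 or replicate 1 or 3 of the double treatment (adjusted p 0.0586 to 0.178). The part of these genes in the results on the S100 family was not tested. With replicates 1 and 3 alone, an alternative chosen after seeing the data, S100A9 passed without any block (TGF-β1 against control -1.35, adjusted p = 0.0327; both against dexamethasone -1.49, adjusted p = 0.0248). In the same libraries S100A13 missed the threshold (0.36, adjusted p = 0.0644; 0.33, adjusted p = 0.0846).

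Of 11 other S100 genes in the table, only S100A3 passed the filter. It lay at 2.20 to 7.27 CPM, was highest in replicate 2 in every group, and had a log2 fold change of 0.00 with TGF-β1 (adjusted p = 0.999) and -0.06 with dexamethasone (adjusted p = 0.983). The remaining 10 stayed at or below 1.24 CPM in every library. Among them was S100A12, the third calgranulin of neutrophils, with 6 counts over all 12 libraries, and S100P with 12.

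Binding partners, export cargo and receptors of the family were taken from a list of 20 genes, of which 19 were tested. With TGF-β1 against control 4 rose and 5 fell, beside 16.2% and 16.6% of all genes tested, and 9 were higher and 7 lower with the block, beside 24.6% and 25.5%. Those with the largest changes up were PLAT, the tissue plasminogen activator that S100A10 can dock (16.7 ± 0.306 CPM in control and 45.7 ± 6.79 with TGF-β1, SD, n = 3; log2 fold change 1.44), FGF1, the cargo of S100A13 (3.35 ± 0.881 and 8.29 ± 1.33 CPM; 1.29), and ANXA6, a partner of S100A6 (0.41). Down were IL1A, the second cargo of S100A13 (-1.58, at no more than 2.43 CPM), ANXA11, another annexin bound by S100A6 (172 ± 18.8 and 72.8 ± 7.89 CPM; -1.24), and ANXA1, the annexin partner of S100A11 (317 ± 37.3 and 140 ± 26.8 CPM; -1.18). The adjusted p values of these 6 genes were at most 0.019 (edgeR), and of these calls only that of IL1A was lost when 1 library was left out (control replicate 1, TGF-β1 replicate 1 or TGF-β1 replicate 3, adjusted p 0.0532 to 0.114). S100A11 was thus higher where ANXA1 was lower, and the 2 cargoes of S100A13 moved in opposite directions.

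With dexamethasone against control 1 of the 19 tested partners rose and 2 fell, beside 10.4% of all genes tested in either direction, and 2 and 5 with the block, beside 22.2%. AHNAK, a giant scaffold bound by the complex of S100A10 with annexin A2, had 2296 ± 44.0 CPM in control, 1194 ± 98.8 with TGF-β1, 3034 ± 401 with dexamethasone and 2444 ± 313 with both (SD, n = 3). It rose with dexamethasone alone (0.40, adjusted p = 0.0399, edgeR) and after TGF-β1 (1.03, adjusted p = 3.7e-05), but the first of these calls was lost without any 1 library other than dexamethasone replicate 3 (adjusted p 0.0964 to 0.198). The difference between these effects did not pass without the block (adjusted p = 0.125, edgeR) and did with it (adjusted p = 2.96e-05). PLAU, the urokinase plasminogen activator, fell with dexamethasone alone (-1.96, adjusted p = 0.00217) and after TGF-β1 (-1.89, adjusted p = 0.00332). PPFIBP1, a liprin that S100A4 binds, fell in both as well (-0.66 and -0.58), the second without a call when TGF-β1 replicate 3 was left out (adjusted p = 0.0554). ANXA2 itself was called without the block only in both against control (0.34, adjusted p = 0.018), where S100A10 had 0.29. That call was lost without control replicate 3 or replicate 1 or 2 of the double treatment (adjusted p 0.0564 to 0.0984).

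TLR4, a receptor of S100A8 and S100A9, was at 25.4 ± 3.28 CPM in control, 21.2 ± 4.94 with TGF-β1, 30.1 ± 7.08 with dexamethasone and 34.99 ± 2.97 with both (SD, n = 3). It rose only where dexamethasone followed TGF-β1 (0.71, adjusted p = 0.0272, edgeR), and this call was lost with the block (adjusted p = 0.0656) and without TGF-β1 replicate 1 or 2 or replicate 1 or 3 of the double treatment (adjusted p 0.0601 to 0.107). The difference between the effects of dexamethasone with and without TGF-β1 did not pass for TLR4 (adjusted p = 0.89).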

How the data were processed

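The authors deposited whole-number read counts for each gene, with no normalisation. Per the submitters' processing notes they came from featureCounts on hg38; aligner, annotation and strand setting are not known here. Per the labels' protocols, polyadenylated RNA from 500 ng total RNA went into a kit that does not mark strand. The table has 18 count columns; 12 match labels, and 6 without a label were not used. Of 28395 identifiers 27745 matched RefSeq GRCh38.p14 symbols, holding 99.943% of counts. Exon lengths came from GENCODE 29, as the union of all annotated exons of a gene, which can exceed the length of its main transcript.

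Genes were filtered with filterByExpr (minimum count 10), scaled by TMM and fitted in 1 model over 12 libraries with edgeR 4.0.16 (R 4.3.3, limma 3.58.1), which was tested on simulated data. After removal of group means, all 18 pairs of same-numbered libraries correlated above 0.1 (0.25 to 0.541), so the number was taken to pair libraries. The common coefficient of variation was 0.122, and 0.0577 once the block was fitted. Replicates of a group differed by more than counting noise (chi-square 5.45 to 16.4 per degree of freedom). The p-values measure the spread between these libraries, which may be partly technical. Reads were counted without molecular identifiers, so they need not be independent molecules.

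The members, lists and rules were chosen with earlier results of these data known. Named genes were the members, other S100 and fused-type genes past the filter, and per comparison the partners (up to 3 each way), chromosomal neighbours (3) and squamous genes (2) called with the largest change, plus SMAD7, FKBP5 and TSC22D3; some genes of the lists are not reported here. Other genes are named as values of marker lists or libraries. Alternatives were the block, other scaling (library size alone, RLE), other filters (none, minimum count 30), DESeq2 1.42.0, limma voom, fits of the compared groups alone and leaving out each library.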

Additional observations from a re-analysis of the deposited data

How the results depend on the processing

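Depth limits S100A8 (1 to 47 counts per library) and S100A4, so only large changes of these genes could be detected, and groups of 3 libraries limit all tests. S100A11 kept its direction and its call in the 4 comparisons with TGF-β1 against a group without it, under every alternative run. The pairing by replicate number and the scaling moved the counts most. The main fit called 2 members higher and 3 lower in TGF-β1 against control, 0 and 0 in both against TGF-β1, 2 and 1 in both against dexamethasone, 3 and 1 in both against control, and 2 and 2 in TGF-β1 against dexamethasone. All genes tested gave 2186 and 2230, 686 and 406, 2145 and 2207, 2491 and 2434, and 2466 and 2632 in the same order, 746 and 660 in dexamethasone against control, and 65 and 54 for the interaction. With the replicate block the members gave 4 and 5, 1 and 0, 5 and 5, 4 and 5, and 4 and 5, and all genes 3308 and 3433 (TGF-β1 against control), 1461 and 1535 (dexamethasone against control), 1275 and 1078 (both against TGF-β1), 3229 and 3498 (both against dexamethasone) and 406 and 238 (interaction). With library size alone, which moved the median of all genes by -0.22, -0.23, -0.27 and -0.17 in the 4 comparisons with TGF-β1 against a group without it (TGF-β1 against control, both against dexamethasone, both against control, and last TGF-β1 against dexamethasone), 22.4%, 22.9%, 21.0% and 29.5% of calls were higher, against 49.5%, 49.3%, 50.6% and 48.4% with TMM. Members called higher were then 1 in each of these, members lower 2 in both against dexamethasone and 3 in both against control, and all genes 1251 and 4332, 1325 and 4472, 1416 and 5342, and 4010 lower in TGF-β1 against dexamethasone. With no filter on low counts 1 member was lower in TGF-β1 against control and 1 in TGF-β1 against dexamethasone. DESeq2 called 2 members lower in both against dexamethasone, 4 in both against control and 4 in TGF-β1 against dexamethasone, and 135 genes higher for the interaction. limma voom called 2 members lower in both against control, and fits of the compared groups alone 2 lower in both against dexamethasone.

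The remaining alternatives were chosen after seeing the data. The block with library size alone gave 1 member higher and 6 lower in TGF-β1 against control, 1 higher in both against TGF-β1, 1 and 5 in both against dexamethasone, 1 and 6 in both against control, and 1 and 6 in TGF-β1 against dexamethasone. All genes then gave 6200 lower (TGF-β1 against control), 1127 and 2035 (dexamethasone against control), 1053 and 1535 (both against TGF-β1), 6452 lower (both against dexamethasone), 7035 lower (both against control), 5650 lower (TGF-β1 against dexamethasone) and 422 and 235 (interaction). Under it S100A10 turned to -0.165 in TGF-β1 against control and S100A2 to -0.163 in both against control, as did AHNAK (-0.179, both against control), CHTOP (-0.153 and -0.169) in TGF-β1 against control and both against dexamethasone, and CHTOP in both against control (-0.247; -0.25 without the block). The block with RLE factors gave 4 and 5, 1 and 0, 5 and 5, 4 and 5, and 4 and 5 members, and all genes 3346 and 3407 (TGF-β1 against control), 1373 and 1640 (dexamethasone against control), 1284 and 1051 (both against TGF-β1), 3421 higher (both against dexamethasone), 3707 higher (TGF-β1 against dexamethasone) and 436 and 224 (interaction). Replicates 1 and 3 alone gave 1 member higher in TGF-β1 against control, both against dexamethasone and TGF-β1 against dexamethasone, with 5 lower in the latter 2 and 4 lower in both against control, and 105 genes higher for the interaction. The causes of these shifts were not tested.

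Leaving out 1 library at a time gave 1 to 2 members higher and 0 to 4 lower in TGF-β1 against control, 1 to 2 and 0 to 1 in both against dexamethasone, 2 to 3 and 0 to 3 in both against control, 1 to 2 and 0 to 3 in TGF-β1 against dexamethasone, and 0 in the other comparisons. Of all genes tested 34 to 67 were higher and 22 to 53 lower for the interaction.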

Other observations

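The members span 1.65 Mb of chromosome 1 (151982915 to 153634361, GRCh38.p14), which also holds the epidermal differentiation genes. With the members and the other S100 genes described above (among them S100A3) left out, the table held 52 genes of this stretch. Of these, 5 passed the filter and 0 were called by edgeR without the block in any comparison. None had an unadjusted p under 0.05, and DESeq2 and limma voom called 0. Among them were 2 fused-type S100 genes, which carry an S100 domain in front of a long repeat: FLG (filaggrin, 5.22 to 14.8 CPM) and HRNR (hornerin, 0.449 to 2.79 CPM). FLG had 9.84 CPM in control, 10.1 with TGF-β1, 7.48 with dexamethasone and 9.61 with both; with the block it was called in both against dexamethasone (0.44, adjusted p = 0.0232) and in TGF-β1 against dexamethasone (0.51, adjusted p = 0.00698). The other 5 of 7 fused-type genes did not pass the filter.

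Of 12 cornified envelope and squamous genes 3 passed the filter. KRT10 rose with TGF-β1 (0.37, adjusted p = 0.031, edgeR), a call lost without control or TGF-β1 replicate 1 or 3 (adjusted p 0.0761 to 0.131). TGM1, the transglutaminase of the cornified envelope, was lower with both agents than with dexamethasone (-0.56, adjusted p = 0.0291; lost without dexamethasone replicate 2 or any 1 of the double-treated libraries, adjusted p 0.0511 to 0.126) and than in control (-0.71, adjusted p = 0.00647). TSC22D3, another glucocorticoid target, had a log2 fold change of 3.35 with dexamethasone.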
